A study of Bassia scoparia with 27 samples.

Results

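A small group of kochia (Bassia scoparia) transcripts had mean levels near untreated 3 hours after fluroxypyr and mean levels above untreated at 10 hours after treatment (HAT), in each of 3 lines. On the scale log2(normalized count + 1), a member had a group mean at 10 HAT more than 1 above the untreated mean in every line, a mean at 3 HAT within 0.5 of the untreated mean in every line, and a mean normalized count of 50 or more at 10 HAT in every line. Of 45517 transcripts in the table, 14 met all conditions, from 13 gene loci, so an intended limit of 150 members was never reached. None of the 14 is among the identifiers that the study names, and no source used here describes them, so they are given by identifier, with no function.

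Fluroxypyr is a synthetic auxin, a herbicide that acts through the plant's own auxin system. As background, auxin brings Aux/IAA repressor proteins to F-box receptors of the TIR1/AFB family, the repressors are degraded, and auxin response factors are freed to act on their target genes. Early targets include the Aux/IAA genes themselves, GH3 enzymes that conjugate auxin to amino acids, and ACS enzymes that make the precursor of ethylene. Later changes include ethylene and abscisic acid synthesis, loss of photosynthesis and growth arrest.

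The lines were Flur-R (labelled B3), a fluroxypyr-resistant line selected over generations from a field population, 9425, an inbred line that is resistant to dicamba through an altered IAA16 gene and susceptible to fluroxypyr, and J01-S (labelled J01), a field population susceptible to both. Young leaf tissue at the shoot tip, called meristem in the sample labels, was taken from plants sprayed with water on the day before herbicide (untreated, UNT), and from the same plants 3 and 10 hours after fluroxypyr at its label rate. The 27 libraries comprised 3 UNT, 3 at 3 HAT and 4 at 10 HAT for Flur-R, 3, 3 and 4 for 9425, and 2, 2 and 3 for J01-S. No untreated tissue was taken at 3 or 10 hours, so the herbicide and the time of day or age of the plants cannot be told apart in any value below. A few plants of Flur-R and J01-S flowered early and are not identified among the libraries.

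Values were the authors' counts per transcript after DESeq scaling, and their totals per library ranged from 59407638 to 76916252 at UNT, from 59992177 to 75606047 at 3 HAT and from 50872625 to 61317818 at 10 HAT. The libraries of plant 3 of 9425 and of plant 3 of J01-S at 10 HAT went against their labels. Of 905 transcripts that separated 9425 from J01-S in every UNT and 3 HAT library by more than 2 on the log2 scale, the library labelled 9425 plant 3 lay on the 9425 side for 37.8%, and the library labelled J01-S plant 3 for 98.1%. The other 10 HAT libraries of 9425 lay there for 97.8 to 99.4%, that of J01-S plant 4 for 1.44% and that of J01-S plant 2 for 26.7%. The first 2 were left out of the member rule and of every test, which used 25 libraries. Young green leaf tissue was checked by 6 transcripts described as chlorophyll-binding, photosystem or chlorophyll synthesis genes, whose summed normalized count was 955279 or more in every UNT library used and between 21146 and 49958 at 10 HAT. The 6 came from the study's lists of its most downregulated genes at 10 HAT in these data, so their fall was fixed by that choice. This fall ran alongside all changes at 10 HAT described here, and its part in them was not tested. The sources used here identify no meristem or flower marker, so the meristem label was not checked.

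A 3 HAT mean within 0.5 of untreated in every line was rare among transcripts that were high at 10 HAT. No difference at 3 HAT was tested, so an unchanged level is not shown. In all 3 lines together, 840 transcripts were more than 1 above untreated on the log2 scale at 10 HAT with a mean of 50 or more, and 690 of them were already 0.5 or more above untreated at 3 HAT in every line. A 3 HAT mean within 0.5 of untreated was seen in 1 line only for 91 of the 840, in 2 lines for 38 and in all 3 lines for the 14 members, which were 1.67% of the 840. Of all 17919 transcripts with a mean of 50 or more at 10 HAT in each line, 7233 were within 0.5 in all lines. The 3 and 10 HAT differences share the same UNT libraries, so a low untreated mean raises both. Taken in 1 line at a time, the same conditions were met by 301 transcripts of Flur-R, 641 of 9425 and 766 of J01-S. The members also lay at the small end of the 840. The largest of their lowest-line differences at 10 HAT, 1.34 on the log2 scale, was exceeded by 526 transcripts, 62.6% of the 840.

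**Figure D1:**
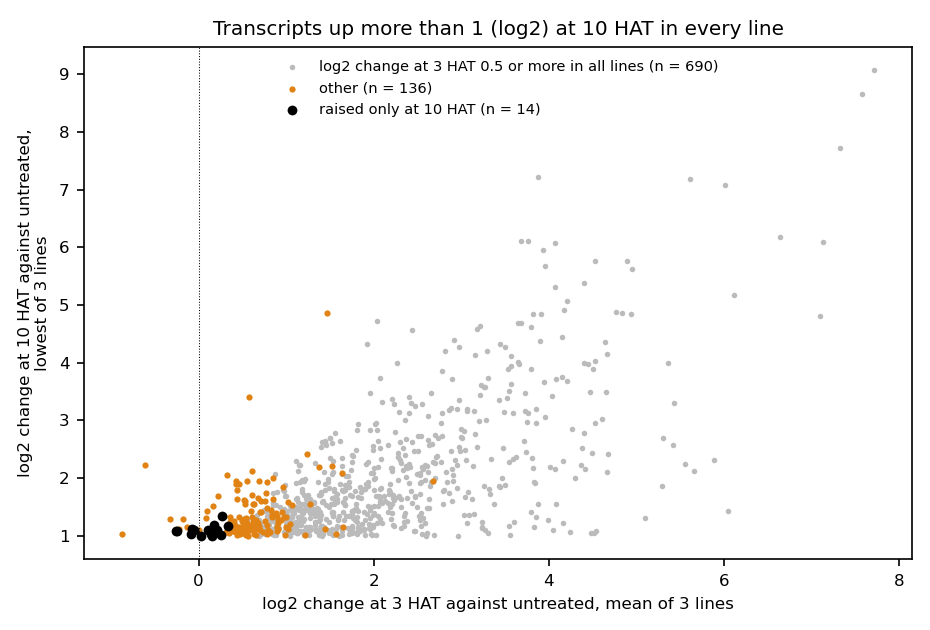
Each point is 1 of the 840 transcripts more than 1 above untreated (log2) at 10 HAT in every line, with the mean log2 change at 3 HAT over the 3 lines on the x axis and the lowest log2 change at 10 HAT on the y axis. The 14 members (black) sit at 3 HAT changes near 0 and at 10 HAT changes of at most 1.34, while the 690 transcripts that were up by 0.5 or more at 3 HAT in all lines (grey) reach 9.07.

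The members can be set beside transcripts of known role that the study describes. The 5 auxin-response transcripts (GH3.2, ACS4-related, IAA15, IAA29 and IAA1-related) were 2.05 to 8.04 above untreated on the log2 scale already at 3 HAT. The 4 transcripts of clock and cold genes (cold regulated protein 27 in 2 isoforms, early flowering 4 and a B-box 26-related gene) were 2.91 to 4.33 above untreated at 3 HAT and 3.57 to 6.62 at 10 HAT. A further 150 transcripts, taken as those with the largest lowest-line change among 439 more than 1 above untreated at both times in every line, had median log2 differences at 10 HAT of 3.27 (Flur-R), 3.46 (9425) and 3.37 (J01-S). The members' medians were 1.11, 1.19 and 1.45, and their medians at 3 HAT were 0.08, 0.10 and 0.07. These are descriptions, since the rule chose the members on the same contrasts. The auxin, clock and cold transcripts came from the study's lists of its most upregulated genes in these same data. Their large values, and those of the 150, therefore follow from how they were picked.

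**Figure D2:**
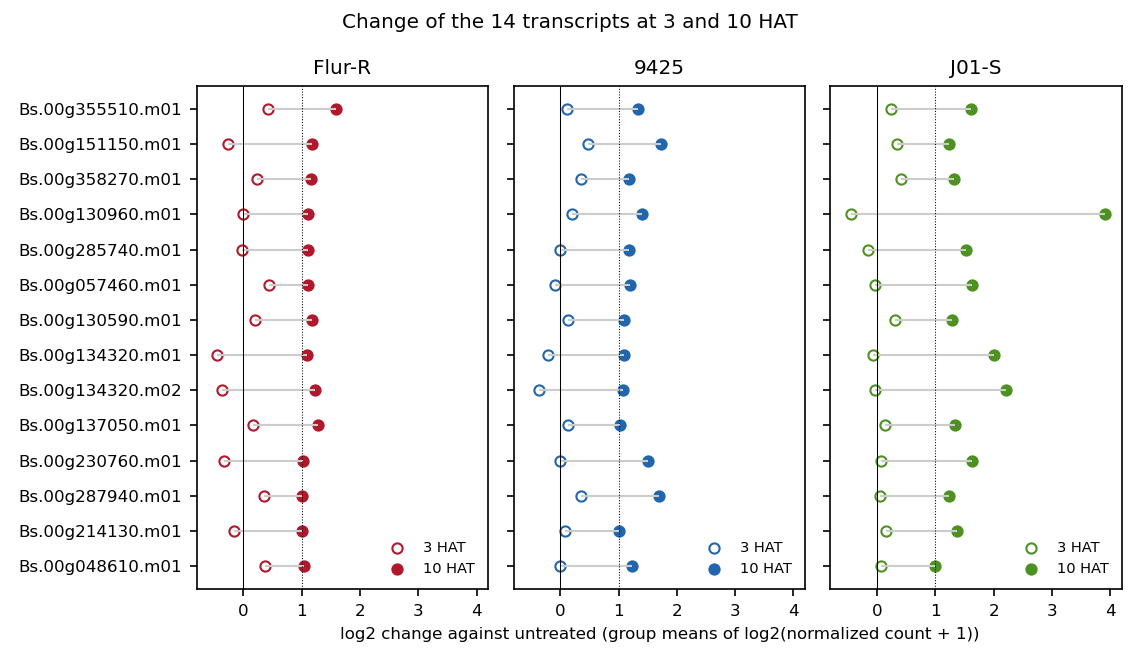
Log2 change against untreated (difference of group means of log2(normalized count + 1)) of the 14 transcripts at 3 HAT (open) and 10 HAT (filled), by line. All 3 HAT points lie within 0.5 of 0 and all 10 HAT points at or beyond 1 by the rule, and the far point at 3.91 is Bs.00g130960.m01 in J01-S.

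The transcript with the most even pattern was Bs.00g130590.m01, on chromosome 1 from 4311384 to 4318162 on the minus strand of assembly version 2, a model of 10 exons with a coding length of 1401 bp. In Flur-R its normalized counts were 5061, 3731 and 3089 at UNT (plants 2, 3 and 4), 5639, 3957 and 3942 at 3 HAT, and 9208, 9482, 9658 and 7130 at 10 HAT (plants 1 to 4). In 9425 they were 2382, 2256 and 2572 at UNT, 1959, 2821 and 3275 at 3 HAT, and 5533, 4681 and 5216 at 10 HAT. Both lines had every 10 HAT library above every earlier one. In J01-S the counts were 2226 and 2361 at UNT, 2798 and 2863 at 3 HAT, and 5714 and 5512 at 10 HAT, again without overlap. The ratio of group means at 10 HAT to UNT was 2.24 (Flur-R), 2.14 (9425) and 2.45 (J01-S), and the pooled spread between replicates was 0.24 on the log2 scale, the smallest of the 14. It was the only member that met the rule under each of 29 ways of applying it (4 other processing settings and the omission of each of the 25 libraries in turn).

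Bs.00g048610.m01, on chromosome 8 from 87205094 to 87220635 (plus strand, 27 exons, coding length 3501 bp), was the other abundant member. Its normalized counts in Flur-R were 3471, 2882 and 5230 at UNT, 4848, 3822 and 6147 at 3 HAT, and 7428, 6316, 7140 and 10521 at 10 HAT. In 9425 they were 2209, 4624 and 2374 at UNT, 2580, 2882 and 3259 at 3 HAT, and 6436, 5765 and 8424 at 10 HAT. The 10 HAT libraries were above all earlier libraries of their line in both, although plant 4 of Flur-R was high at each time. In J01-S the counts were 3891 and 5234 at UNT, 4401 and 5096 at 3 HAT, and 7961 and 10235 at 10 HAT, a log2 difference at 10 HAT of 1.00 that only just met the rule. The transcript after it on the chromosome, Bs.00g048620.m01, 6679 bp away on the same strand, went the other way, with log2 differences at 10 HAT of -5.44 (Flur-R), -5.69 (9425) and -5.06 (J01-S).

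Per kilobase of coding length, which allows levels to be compared between genes, Bs.00g130590.m01 had the highest mean level at 10 HAT in each line, at 6331 (Flur-R), 3671 (9425) and 4006 (J01-S) normalized counts per kb. Bs.00g048610.m01 followed with 2243, 1964 and 2599, and then Bs.00g230760.m01 with 1459, 1301 and 1502. The lowest member by this measure was Bs.00g134320.m02 in each line, at 36.8, 37.4 and 76.1 normalized counts per kb.

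Bs.00g355510.m01 led the 14 by its lowest-line difference. This 9-exon model lies on chromosome 5 from 1605638 to 1610794 on the minus strand. In Flur-R its normalized counts were 312, 202 and 175 at UNT, 529, 274 and 186 at 3 HAT, and 741, 996, 664 and 421 at 10 HAT. Plant 2 was the highest of the line at each time, and its 3 HAT library at 529 overlapped the 10 HAT group. In 9425 the counts were 117, 150 and 128 at UNT, 117, 146 and 166 at 3 HAT, and 388, 300 and 319 at 10 HAT. In J01-S they were 143 and 141, then 187 and 152, then 593 and 321. The gene model next to it, Bs.00g355520.m01, 1673 bp away on the other strand, was higher by 1.97, 3.19 and 3.19 on the log2 scale (Flur-R, 9425 and J01-S) at 3 HAT and by 3.86, 5.22 and 4.22 at 10 HAT, so neighbouring models differed in their 3 HAT values.

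Bs.00g151150.m01, a model of 10 exons on chromosome 1 from 32872526 to 32875292 (minus strand), had normalized counts in Flur-R of 475, 362 and 681 at UNT, 435, 185 and 832 at 3 HAT, and 861, 962, 1344 and 1368 at 10 HAT. In 9425 the counts were 357, 141 and 401, then 254, 557 and 381, then 911, 796 and 1006. All 10 HAT libraries were the highest of their line. In J01-S the counts were 674 and 482, then 813 and 640, then 1245 and 1462. Its 3 HAT difference of 0.47 in 9425 was the closest of the 14 to the limit of 0.5.

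Bs.00g230760.m01, a single-exon model of 633 bp on chromosome 3 from 95650646 to 95651278 (minus strand), was flat at 3 HAT in the susceptible lines. In 9425 its normalized counts were 328, 279 and 262 at UNT, 280, 306 and 283 at 3 HAT, and 813, 934 and 723 at 10 HAT. In J01-S they were 335 and 280, then 308 and 335, then 874 and 1028. The spread within each early group was small beside the step to 10 HAT. In Flur-R they were 522, 360 and 453 at UNT, 360, 250 and 476 at 3 HAT, and 817, 1115, 615 and 1148 at 10 HAT, with no overlap between the last group and the others.

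Bs.00g137050.m01 lies on chromosome 1 from 10875968 to 10880628 (minus strand, 8 exons). In Flur-R its normalized counts were 376, 332 and 363 at UNT, 488, 351 and 370 at 3 HAT, and 1253, 813, 728 and 755 at 10 HAT. In 9425 they were 267, 347 and 201, then 269, 290 and 313, then 731, 384 and 570. Plant 2 of 9425 was the exception to a clear step, since it went from 347 to 384. In J01-S the counts were 244 and 345, then 207 and 491, then 683 and 780.

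Bs.00g285740.m01 was the member with the most exons, 51, on chromosome 7 from 78491811 to 78530643 (plus strand, coding length 5103 bp). Its 3 HAT mean was within 0.15 of untreated on the log2 scale in every line, but single libraries varied widely. In Flur-R the normalized counts were 1228, 973 and 1714 at UNT, 992, 840 and 2385 at 3 HAT, and 2283, 1516, 3734 and 4333 at 10 HAT. In 9425 they were 681, 853 and 909, then 540, 657 and 1465, then 1515, 1383 and 2926. Plant 4 gave the highest value of both lines at 3 and 10 HAT, and the groups overlapped. In J01-S they were 1077 and 1043, then 1222 and 749, then 3841 and 2448.

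Bs.00g130960.m01 was unlike the others because it was listed at 0 in whole plants. Its model lies on chromosome 1 from 4627324 to 4628506 (minus strand, 2 exons, coding length 747 bp). All 3 libraries of Flur-R plant 2 and both libraries of J01-S plant 1 were at 0, and no other library was. In the other plants of Flur-R the normalized counts were 29 and 43 at UNT, 29 and 43 at 3 HAT, and 60, 70 and 72 at 10 HAT. In 9425 they were 79, 91 and 96, then 117, 84 and 107, then 174, 262 and 283. J01-S plant 4 had 95 at UNT, 51 at 3 HAT and 182 at 10 HAT. Plant 2 of that line had 117 at 10 HAT. The J01-S log2 difference of 3.91 at 10 HAT therefore rests on plant 1 at UNT, and without plant 1 it was 0.61, with -0.88 at 3 HAT. Without Flur-R plant 2 the Flur-R difference at 10 HAT was 0.91, and without only that plant's UNT library it was -0.62. Leaving out the 10 HAT library of Flur-R plant 1, 3 or 4 gave 0.66, 0.58 and 0.57. The zeros followed the plant, and membership depended on those plants.

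The gene model beside it, Bs.00g130950.m01 (chromosome 1 from 4627013 to 4627291, minus strand, 1 exon), ends 32 bp away. It was listed at 0 in the same 5 libraries and in no other, and its highest normalized count anywhere was 16. This model was singled out after its values were seen. Whether the 2 models belong to 1 gene was not tested.

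**Figure D3:**
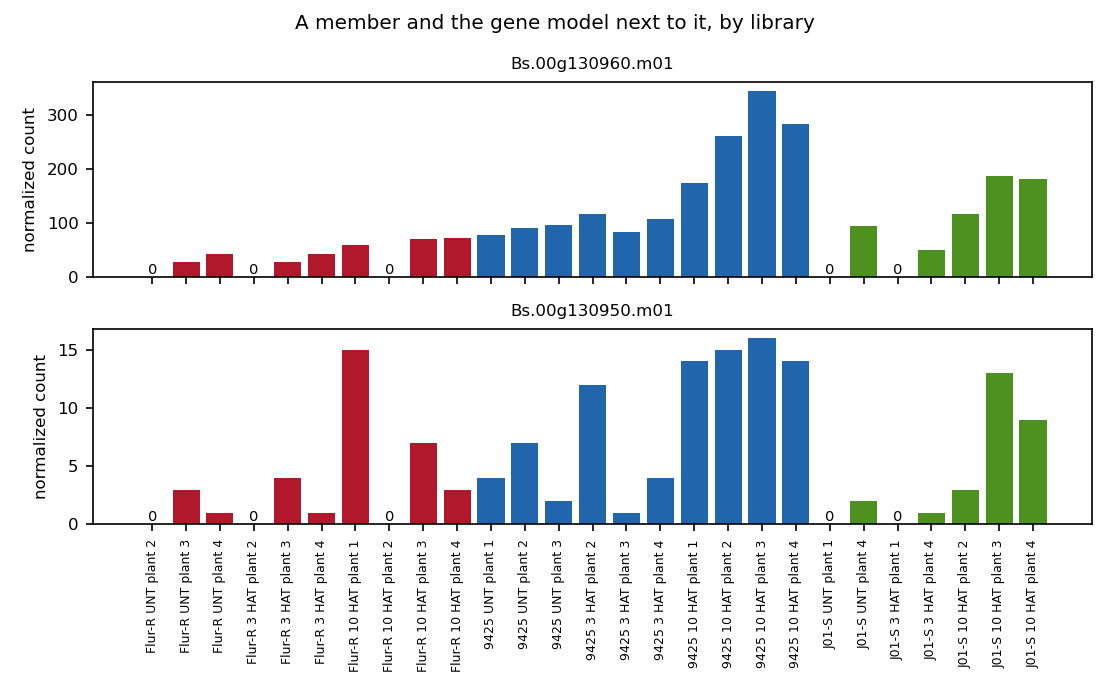
Normalized counts of Bs.00g130960.m01 and of the neighbouring model Bs.00g130950.m01 in each of the 27 libraries, coloured by line (red Flur-R, blue 9425, green J01-S), with 0 written where the value is 0. Both are at 0 in the 3 libraries of Flur-R plant 2 and the 2 libraries of J01-S plant 1, and the 10 HAT libraries of plant 3 of 9425 and J01-S are those left out by the rule.

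The locus Bs.00g134320 (chromosome 1 from 7918242, plus strand) supplied both Bs.00g134320.m01, which ends at 7926584, and Bs.00g134320.m02, which ends at 7923513. The isoforms share coding sequence, and the second had 0.094 to 0.375 times the count of the first across the 27 libraries (median 0.262), so they are not independent members and the division of reads between them is uncertain. Bs.00g134320.m01 had normalized counts in J01-S of 67 and 158 at UNT, 93 and 103 at 3 HAT, and 300 and 578 at 10 HAT, the clearest step of the 3 lines. In Flur-R the counts were 93, 61 and 234, then 46, 56 and 199, then 363, 139, 157 and 396, so plant 4 at UNT was above 2 of the 10 HAT libraries. In 9425 they were 53, 181 and 198, then 87, 127 and 112, then 204, 281 and 326. For both isoforms the 9425 difference depended on plant 1 at UNT, the lowest library of that group. Without it the lowest-line difference was 0.49 on the log2 scale for Bs.00g134320.m01 and -0.08 for Bs.00g134320.m02, which had 5 in that library against 61 and 70 in the other plants. Without UNT plant 3 of Flur-R, that of Bs.00g134320.m01 was 0.68.

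The remaining 4 members overlapped in at least 1 line. Bs.00g358270.m01 (chromosome 5 from 3947461 to 3950045, minus strand) had mean normalized counts at 10 HAT of 310 (Flur-R), 359 (9425) and 409 (J01-S). Its values in J01-S were set by the plant: plant 1 had 83 at UNT and 109 at 3 HAT, plant 4 had 234, 316 and 620, and plant 2 had 198 at 10 HAT. Without the UNT library of plant 1 the lowest-line difference was 0.58, and without the 10 HAT library of plant 4 it was 0.50. Bs.00g057460.m01 (chromosome 8 from 96858933 to 96865005, plus strand) ranged from 14 to 96 in Flur-R, where UNT plant 2 was the lowest, and without that library its lowest-line difference was 0.43. Bs.00g287940.m01 (chromosome 7 from 82297021 to 82297332, minus strand, single exon) had means of 75.3, 95.3 and 151 in Flur-R at UNT, 3 HAT and 10 HAT. Bs.00g214130.m01 (chromosome 3 from 60786414 to 60794056, minus strand) had the smallest log2 differences at 10 HAT beside those of Bs.00g048610.m01, at 1.00 in both Flur-R and 9425. Without the 10 HAT library of J01-S plant 2 its lowest-line difference was 0.53. The gene models give its locus 2 isoforms, and the other is not a member, so its rise need not hold for the whole locus.

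**Figure D4:**
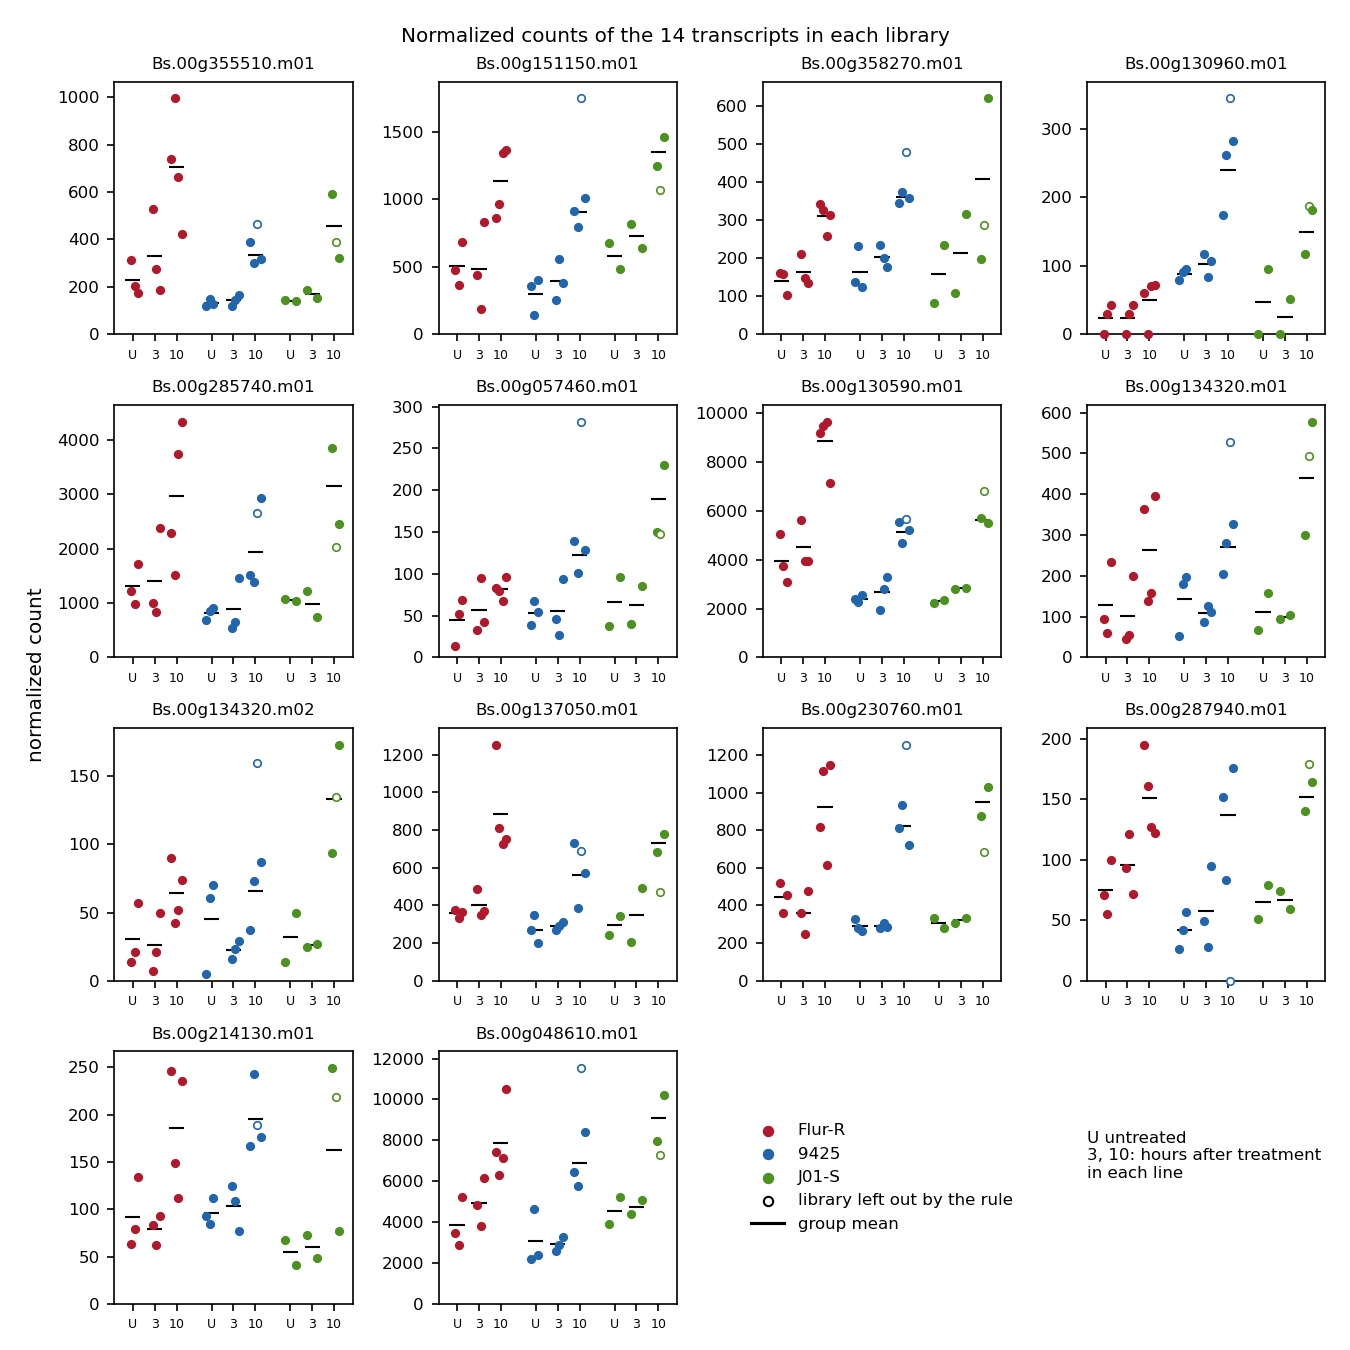
Normalized counts of the 14 transcripts in every library, 1 panel per transcript, by line (colours) and time (U untreated, 3 and 10 HAT), with points within a group ordered by plant number, lines for the mean of the libraries used and open points for the left-out libraries. Bs.00g130590.m01 and Bs.00g230760.m01 show separated 10 HAT groups in all lines, while Bs.00g130960.m01 has 1 plant at 0 in J01-S and 1 in Flur-R.

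Every 10 HAT library lay above every UNT and 3 HAT library of its line for 7 members in Flur-R (3.68% of the 28945 transcripts tested did so), 11 in 9425 (7.89%) and 13 in J01-S (13.8%). The 5 members with this separation in all 3 lines (1.13% of those tested) were Bs.00g151150.m01, Bs.00g130590.m01, Bs.00g137050.m01, Bs.00g230760.m01 and Bs.00g048610.m01. The exception in J01-S was Bs.00g358270.m01. The rule used these libraries, so nothing is read from these counts. On the same contrast the limma fit called 5 members higher at 10 HAT in Flur-R (8.27% of all tested transcripts), 7 in 9425 (9.84%) and 4 in J01-S (5.67%), and with plant as a random block it called 11 (12.8%), 11 (14.7%) and 10 (9.67%).

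The rise could also be followed within 6 plants sampled both untreated and at 10 HAT. All 14 members were higher at 10 HAT in Flur-R plants 3 and 4 (49.9% and 50.1% of all tested transcripts were), 9425 plants 1 and 2 (48.6% and 48.2%) and J01-S plant 4 (50.6%), and 13 were in Flur-R plant 2 (48.4%), where Bs.00g130960.m01 was at 0 both times. The median log2 change over the members was lowest in 9425 plant 2, at 0.83, and highest in 9425 plant 1, at 1.40. Bs.00g130590.m01 had the narrowest range over plants, 0.91 to 1.37, and Bs.00g137050.m01 changed by as little as 0.15, in 9425 plant 2. These are the same libraries that the rule used.

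**Figure D5:**
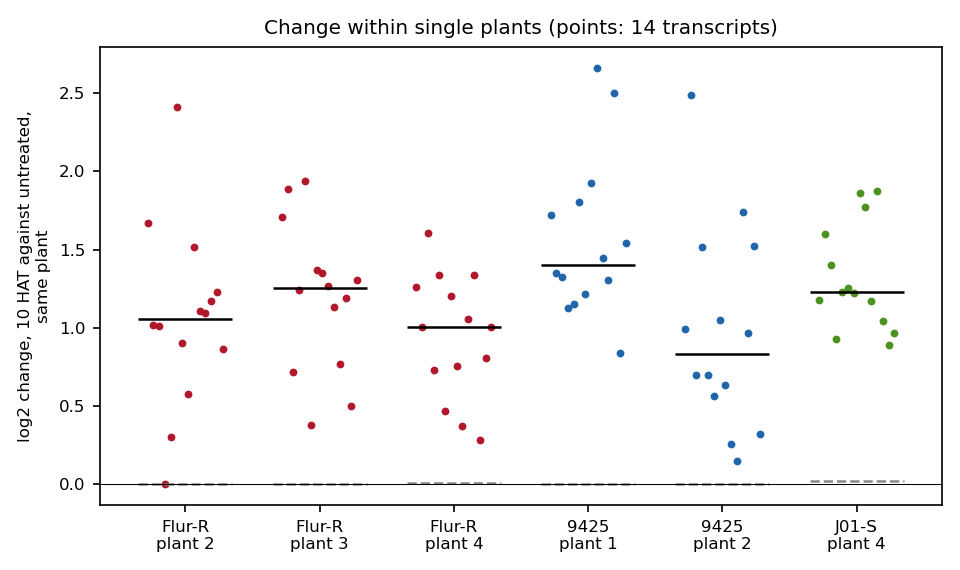
Log2 change from untreated to 10 HAT in the same plant for the 14 transcripts (points, in the order of their lowest-line change, coloured by line), with the median of the members (solid line) and the median of all 28945 tested transcripts (dashed line). Members' medians lie between 0.83 and 1.40, against medians of all transcripts at or near 0.

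The left-out 10 HAT libraries took no part in choosing the members, although they are compared here with the 8 UNT libraries that did. In the library labelled 9425 plant 3, 13 of the 14 members were above all 8 UNT libraries, as were 24.3% of all tested transcripts. In the library labelled J01-S plant 3, 14 of 14 were, against 20.9%. The median log2 difference from the mean of the UNT libraries was 1.69 in the first and 1.31 in the second, beside 0.02 and 0.05 over all tested transcripts. The smallest differences in the library labelled J01-S plant 3 were those of Bs.00g137050.m01, at 0.65, Bs.00g358270.m01, at 0.98, and Bs.00g285740.m01, at 0.98. In the library labelled 9425 plant 3 the smallest positive one was that of Bs.00g130590.m01, at 1.03, and Bs.00g048610.m01 reached 11532 normalized counts, its highest value anywhere. The exception was Bs.00g287940.m01, which was listed at 0 in that library and at 26 or more in each of the 26 others.

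Differences between the lines were not used by the rule and were tested across all 28945 transcripts with limma, with p-values adjusted by the Benjamini-Hochberg method and a call at an adjusted p below 0.05 and a log2 difference beyond 0.5. Before treatment, the Flur-R level exceeded that of 9425 for 1 member, with 0 the other way, where 3.99% of all tested transcripts were called higher and 1.31% lower. This was Bs.00g130590.m01, whose 3 Flur-R libraries (3089 to 5061) all lay above the 9425 libraries (2256 to 2572), with a log2 difference of 0.69 (SE 0.20, 95% interval 0.28 to 1.10, limma adjusted p = 0.0444). That call was close to the limit and was lost on leaving out any 1 of 18 of the 25 libraries, with an adjusted p of at most 0.297, reached without UNT plant 2 of Flur-R, where the log2 difference was 0.50.

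At 10 HAT the same transcript was again higher in Flur-R than in 9425, by 0.78 on the log2 scale (SE 0.18, 95% interval 0.40 to 1.16, limma adjusted p = 0.0113), and no other member was called (4.3% of tested transcripts were called higher and 2.72% lower). All 4 Flur-R libraries, at 7130 to 9658, exceeded the 9425 libraries used, at 4681 to 5533. The left-out library labelled J01-S plant 3, on the 9425 side in the check of lines, had 6797. The left-out library labelled 9425 plant 3 had 5668. Leaving out the 10 HAT library of 9425 plant 2 ended the call (limma adjusted p = 0.0599). Bs.00g355510.m01 had the next smallest adjusted p, with 421 to 996 normalized counts in Flur-R against 300 to 388 in 9425, a log2 difference of 1.01 (95% interval 0.32 to 1.70, limma adjusted p = 0.0709), and it was called with plant as a random block (limma adjusted p = 0.0314, with 5.39% of tested transcripts called higher).

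Between Flur-R and J01-S no member was called before treatment (3.07% of tested transcripts were called in either direction) or at 10 HAT (3.9%), with 1 member at an unadjusted p below 0.05 at each time. That member at UNT had the largest difference in favour of Flur-R, Bs.00g130590.m01 at 0.76 (95% interval 0.30 to 1.22, limma adjusted p = 0.0724), and it was called with plant as a random block (limma adjusted p = 0.0430, with 1.79% called higher). At 10 HAT its difference was 0.65 (95% interval 0.22 to 1.08, limma adjusted p = 0.0916). Across the 14, the log2 difference at UNT ran from -0.67 for Bs.00g057460.m01 to 0.76.

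The size of the 10 HAT response did not pass the test as different between lines for any member. For Flur-R minus 9425, 0 of 14 were called by limma (0.0587% of tested transcripts were) and 0 had an unadjusted p below 0.05, and the same counts held for Flur-R minus J01-S (0.00345%). The rule asks for a rise of more than 1 in every line, so only differences in the size of the rise could appear, and the intervals are wide. For Bs.00g130590.m01 the response difference was 0.09 against 9425 (95% interval -0.47 to 0.65) and -0.11 against J01-S (95% interval -0.74 to 0.52). The 95% interval lay within 1 of 0 on the log2 scale for 2 of 14 members against each susceptible line, and even these intervals were more than 1 wide. They come from the main fit, which has no term for plants sampled at both times. Intervals with plant as a block were not taken for this contrast and could be narrower. Equal responses are therefore not shown for any member.

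After group means were removed, the members' deviations from library to library were compared in pairs. Over the 91 pairs of members, the median Pearson correlation of the deviations over 25 libraries was 0.10, with 55 pairs above 0. The highest, 0.88, was that of the isoforms of Bs.00g134320, followed by 0.75 for Bs.00g355510.m01 with Bs.00g130590.m01 and 0.74 for Bs.00g134320.m01 with Bs.00g048610.m01. The lowest, -0.67, was that of Bs.00g355510.m01 with Bs.00g130960.m01. Libraries of 1 plant are included together and no other transcripts were taken for comparison, so these are descriptions.

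The 13 loci lie on 5 chromosomes, 5 loci on chromosome 1 and 2 each on chromosomes 3, 5, 7 and 8. No members were adjacent loci. The closest were Bs.00g130590.m01 and Bs.00g130960.m01, 309161 bp apart, the only pair within 1 Mb. Of 29 tested transcripts at the loci next to members, 3 were more than 1 above untreated at 10 HAT in all lines. They were Bs.00g355520.m01, Bs.00g130950.m01 and Bs.00g285750.m01. Among all 45517 transcripts, tested or not, 1275 were. The count over the 28945 tested alone was not taken, so the 2 shares are not like for like. Isoforms of the same locus are counted separately among the 29, and Bs.00g130950.m01 never exceeded a normalized count of 16. Whether neighbours of members were raised more often than other transcripts was not tested. The members' models had a median of 8.5 exons, against 5 over all tested transcripts and 3 in the 150 transcripts raised at both times, and a median coding length of 1454 bp against 924 and 1029 bp. The members ranged from 1 to 51 exons, both isoforms of Bs.00g134320 are counted, and these differences were not tested. A single exon was found in 2 of the 14, which was 14.3%, against 11.7% of all tested transcripts.

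The thresholds cut through a continuous range. The last members inside the limit at 10 HAT were Bs.00g214130.m01 and Bs.00g048610.m01, with lowest-line log2 differences of 1.00, and the first outside were Bs.00g157250.m01 at 0.97 and Bs.00g406200.m01 at 0.95. At 3 HAT the nearest inside were Bs.00g151150.m01 at 0.47 and Bs.00g134320.m01 at 0.45, and the nearest outside were Bs.00g187740.m01 and Bs.00g058310.m01, both at 0.50. With the 3 HAT limit set at 0.7, 46 transcripts met the rule, and at 1 it was 115, alternatives chosen after seeing the data. Leaving out single libraries gave 7 to 18 transcripts, with 4 to 13 of the 14 among them, and the count was under 10 without UNT plant 3 of Flur-R (7), 3 HAT plant 4 of Flur-R (9) or 10 HAT plant 4 of Flur-R (8). Without J01-S plant 2 at 10 HAT, the library at 26.7% in the check of lines, 13 transcripts met the rule and all 13 were among the 14.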

How the data were processed

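RNA-seq values for 27 libraries came from a table that the authors deposited, made with HISAT2 2.1.0 (a version from the submitters' processing notes), featureCounts and DESeq2 1.28.1, against coding sequences of assembly version 2. The deposited score of each transcript is a DESeq-normalized count rounded to a whole number, so reads and depth per value could not be recovered and no count model was fitted. Deposited gene models gave 1-based positions. A pseudocount of 1 was added before log2 transformation. limma 3.58.1 in R 4.3.3 (empirical Bayes with trend, 9 group means, 25 libraries) tested the 28945 transcripts with a value of 10 or more in at least 2 libraries, and all 14 members passed this filter. The script was tested on simulated data. Same-plant libraries deviated together from their group means (median correlation 0.73 for Flur-R, 0.51 for 9425, 0.61 for J01-S). Between plants the medians were -0.28, -0.24 and -0.45. These negative values follow in part from removing the means of small groups, so they are not a separate contrast. The design states repeated sampling, so fits with plant as a block were run beside the main fit. Other alternatives were other pseudocounts, filters, a TMM-type rescaling, all libraries as labelled, and each library left out. Named in the text are all members, their neighbours of note and the transcripts nearest the limits. The members, limits and gene lists were chosen with earlier results of these data known. Plants are the replicates, 2 to 4 in each group. Sequences and functions of the members are not analysed here.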

Additional observations from a re-analysis of the deposited data

Results flagged for a closer look

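In the 2 groups of 4 libraries, the gap of the highest or lowest library to its nearest neighbour was compared with the whole range of the group for each of the 14 members, 28 comparisons in all, of which chance marks about 1 in 20. It was large in 2. Bs.00g130960.m01 was at 0 in Flur-R plant 2 at 10 HAT while the other plants were at 60, 70 and 72 (gap over range 0.833). Bs.00g137050.m01 was at 1253 in Flur-R plant 1 at 10 HAT while the others were at 728, 755 and 813 (gap over range 0.838).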

How the results depend on the processing

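With plant as a random replicate block, limma called 11 members higher at 10 HAT than untreated for Flur-R, 11 for 9425, 10 for J01-S, 2 members in Flur-R against 9425 at 10 HAT and 1 in Flur-R against J01-S untreated. As a fixed replicate block it called 10 in Flur-R and 11 in 9425. Shares over all tested transcripts are given above for the random block. They were not taken for the fixed block or the other fits of this paragraph, so nothing is read from those counts of calls. The block changed no other count by over 1.5 times. Without a filter, and with all 27 libraries as labelled, 0 members were called in Flur-R against 9425 untreated. With a pseudocount of 8 the rule gave 9 transcripts, and with 3 HAT limits of 0.7 and 1 it gave 46 and 115. With values summed by gene locus it gave 12 loci, against the 13 loci of the members. Leaving out 1 library gave 7 to 18 transcripts, 0 to 1 calls in Flur-R against 9425 untreated, 0 to 2 at 10 HAT, 0 to 1 in Flur-R against J01-S untreated, and 2 to 5 in J01-S at 10 HAT against untreated. The lowest-line difference turned to -0.067 for Bs.00g287940.m01 with all libraries. Without 1 library it ran from -0.62 to 1.40 for Bs.00g130960.m01 and from -0.080 to 1.23 for Bs.00g134320.m02, and it fell to as little as 0.43 for Bs.00g057460.m01, 0.49 for Bs.00g134320.m01, 0.50 for Bs.00g358270.m01 and 0.53 for Bs.00g214130.m01. For the 8 other members no omission moved it by over 1.5 times. The cause was not tested except where the values of the library left out are given above. Groups of 2 to 4 plants and rounding to whole numbers limit the low members.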
